A study of Caenorhabditis elegans with 8 samples.

Results

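The genes described here encode nuclear subunits of the mitochondrial respiratory chain and ATP synthase of Caenorhabditis elegans. They were chosen by name from a list of 32, and 30 of these names occur in the poly(A) table, which has 44968 rows of which the authors tested 8513. All 30 were among the tested genes, and all 30 were found by gene identifier in the rRNA-depleted table of 25640 genes. The names cox-4 and atp-1 were absent. By their current symbols, the rows W09C5.8 and H28O16.1 correspond to them, and these are described once in their complexes and counted nowhere else.

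The 8 libraries came from young adult worms grown as synchronized liquid cultures, and they form 4 groups of 2. One pair of groups is wild type, which the column header of the poly(A) table gives as strain N2 on the empty RNAi vector L4440, and the other is RNAi against CstF50, headed cpf-1 RNAi. Each was measured as poly(A)-selected RNA and as rRNA-depleted total RNA. CstF50 belongs to the cleavage stimulation factor, a complex that helps cut precursor mRNA at its 3′ end. No label says whether the 2 libraries of a group came from separate cultures, so the p-values measure only the spread between these libraries, which may be technical.

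The respiratory chain passes electrons from NADH through complex I, and from succinate through complex II, to ubiquinone, then through complex III and cytochrome c to complex IV, where oxygen is reduced. Complexes I, III and IV pump protons across the inner mitochondrial membrane, and ATP synthase uses the returning protons to make ATP. In worms, mutants of several of these genes (gas-1, mev-1, isp-1) are known for altered lifespan or oxidative stress, and RNAi against many of the subunits extends lifespan.

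The poly(A) table holds 1 value per gene and group in FPKM (fragments scaled to transcript length and sequencing depth), a p-value and its adjusted form, the q-value. It has no column per library, so the depth behind these values is unknown and the only error is the standard error (SE) implied by the authors' p-value. Across all tested genes the median log2 fold change of CstF50 RNAi over wild type was -0.90, so each poly(A) result is also given relative to this median gene. The rRNA-depleted table gives mean normalized counts of 2 conditions called A and B, and its headers do not say which of them is wild type. No treatment was assigned to them, and every value of that table is given as B against A. Whole counts per library were recovered from those means. Over the recovered genes they summed to 8287830 and 2852379 counts in A and to 35638137 and 15056102 in B. Both libraries of A were shallower than both of B, so a count of 0 in A rests on less depth. The library numbers within A and B carry no label. The targeted gene cpf-1 was at 50.5 FPKM in wild type and 67.8 in CstF50 RNAi (the authors' deposited table has q = 0.613), so the poly(A) values do not show a lower cpf-1 level. In rRNA-depleted RNA the mean of cpf-1 was 1695 normalized counts for A and 8662 for B, a 5.11-fold difference (adjusted p = 0.00296 in the authors' deposited table).

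In poly(A) RNA, 2 of the 30 respiratory genes passed in the authors' deposited table (q-value under 0.05), and both fell after CstF50 RNAi: lpd-5, an accessory subunit of complex I, and asg-1, subunit g of ATP synthase. Of all 8513 tested genes 16.8% passed this threshold, 13.6% lower and 3.12% higher. Whether the respiratory genes differ from that background was not tested. At an unadjusted p under 0.05 there were 9 respiratory genes of 30, beside 33.3% of all tested genes. Values were lower after RNAi in 25 of the 30 and higher in 5, namely nuo-3, gas-1, mev-1, ucr-2.1 and cyc-2.2. The median log2 fold change of the 30 was -0.70. It was -0.75 in the 29 at 50 FPKM or more in wild type, beside -0.93 in the 3232 tested genes of that level. Relative to the median gene the 30 had a median of 0.20, with 19 above it and 11 below. In that scale lpd-5 and asg-1 no longer passed, and 2 other genes did, gas-1 of complex I and ucr-2.1 of complex III, both higher (background 6.15%, 5.64% higher and 0.509% lower). These RNAs come from whole worms, in which fewer cells of a type and less RNA per cell cannot be told apart.

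**Figure D1:**
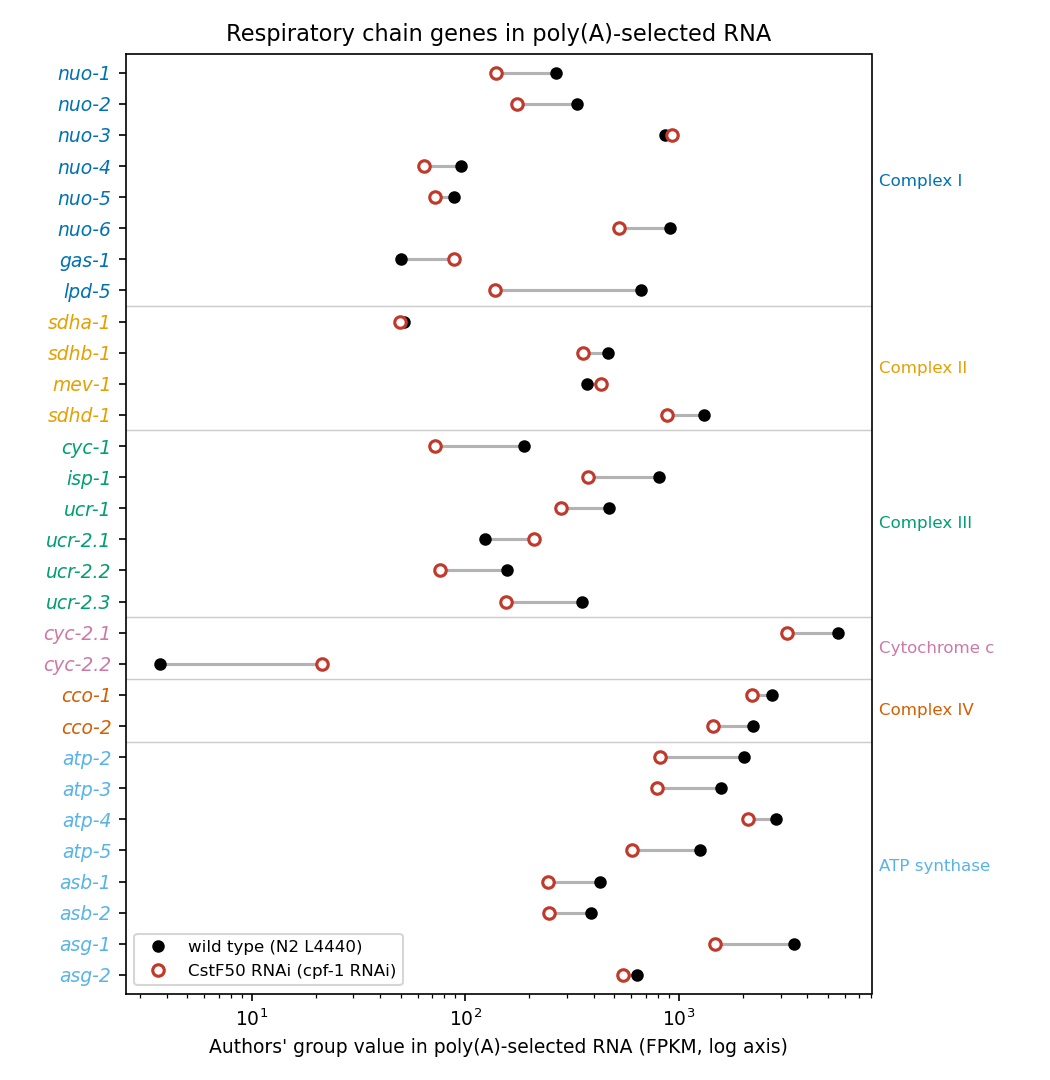
Authors' FPKM of each of the 30 respiratory genes in poly(A)-selected RNA (log axis), 1 value per group, with wild type as filled black points and CstF50 RNAi as open red circles joined by a grey line. The open circle lies to the left of the filled point in 25 genes, with the longest such line in lpd-5 (668 and 138 FPKM), and to the right in 5, with the longest in cyc-2.2 (3.72 and 21.4 FPKM).

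Levels spanned a wide range. In wild type they ran from 3.72 FPKM for cyc-2.2 to 5553 for cyc-2.1, with a median of 470.4, and after RNAi from 21.4 to 3207 with a median of 318, and the same 2 genes marked both ends. The order of the genes was largely the same in both groups (Spearman's rho 0.94 and Pearson's r of log2 values 0.93 over 30 genes, which share their libraries and normalization). By complex, the median in wild type was 2489 FPKM for the 2 complex IV genes and 1423 for the 8 ATP synthase genes, against 300.1 for complex I, 420.0 for complex II and 270.5 for complex III. No replicate spread is available for the order of neighbouring genes.

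Complex I takes electrons from NADH. Of its 8 genes listed here, 1 fell in poly(A) RNA and none rose (median log2 fold change -0.68). The gene lpd-5 (ZK973.10, chromosome I from 4372255 to 4373121 on ce10, with 3 exon blocks), the counterpart of the human accessory subunit NDUFS4, was at 668 FPKM in wild type and 138 after RNAi. That is 4.86-fold lower, a log2 fold change of -2.28 (SE 0.58, q = 0.00325 in the authors' deposited table). It was the lowest fold change of the 30. Against the median gene the difference was -1.38 and did not pass (adjusted p = 0.170, normal deviate with Benjamini-Hochberg adjustment). The row of lpd-5 is alone in its locus.

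The core subunit gene gas-1 (K09A9.5, chromosome X from 15577402 to 15590329 on ce10, with 6 exon blocks), which encodes the 49 kDa subunit of the electron-transferring arm, had 50.3 FPKM in wild type and 88.3 after RNAi. Its log2 fold change of 0.81 (SE 0.51) did not pass (the authors' deposited table has q = 0.250). It was 1.71 above the median gene, which passed (adjusted p = 0.0190). The other core subunit genes of that arm among the 30 had lower values after RNAi. The NADH-binding subunit gene nuo-1 was at 266 and 139 FPKM, nuo-2 at 334 and 176, and the iron-sulfur subunit gene nuo-5 at 88.3 and 72.1. None of these 3 passed, nor did the accessory subunit genes nuo-3 (864 and 936 FPKM), nuo-4 (95.4 and 64.2) and nuo-6 (913 and 525).

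Complex II, succinate dehydrogenase, also works in the tricarboxylic acid cycle. None of its 4 genes passed in poly(A) RNA, and their q-values in the authors' deposited table ran from 0.391 to 0.951. The flavoprotein gene sdha-1 was at 51.7 FPKM in wild type and 49.7 after RNAi, and the iron-sulfur subunit gene sdhb-1 at 469 and 355. Of the cytochrome b anchor subunits, mev-1 was at 371 and 435 FPKM and sdhd-1 at 1308 and 883. The median log2 fold change of the 4 was -0.23, and all 4 lay above the median gene, by 0.33 (sdhd-1) to 1.12 (mev-1).

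Complex III passes electrons from ubiquinone to cytochrome c. None of its 6 genes passed the q-value threshold, and 5 of the 6 had lower values after RNAi (median log2 fold change -1.07). The lowest was cyc-1, the cytochrome c1 gene, at 189 FPKM in wild type and 72.03 after RNAi (log2 fold change -1.39, SE 0.62, q = 0.0993 in the authors' deposited table). The Rieske iron-sulfur gene isp-1 was at 805 and 377 FPKM (q = 0.0709). The core 1 gene ucr-1 was at 472 and 281 FPKM. The 3 genes for core 2 proteins had values in unlike directions. The gene ucr-2.1 (VW06B3R.1, chromosome X from 12018359 to 12021144 on ce10, with 9 exon blocks) was at 124 FPKM in wild type and 209 after RNAi, ucr-2.2 at 157 and 76.1, and ucr-2.3 at 352 and 156. The log2 fold change of ucr-2.1 was 0.76 (SE 0.48, q = 0.254), those of ucr-2.2 and ucr-2.3 were -1.05 (SE 0.63) and -1.18 (SE 0.58), and the difference between these genes was not tested. Relative to the median gene ucr-2.1 was higher by 1.65 and passed (adjusted p = 0.0140), while ucr-2.2 and ucr-2.3 were at -0.15 and -0.28.

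Cytochrome c is the soluble carrier between complexes III and IV, and the worm has 2 genes for it. Neither passed in poly(A) RNA. The gene cyc-2.1 was the most abundant of the 30 per length, at 5553 FPKM in wild type and 3207 after RNAi (log2 fold change -0.79, SE 1.25). Its locus is shared with the ribosomal protein gene rpl-20, at 10021 and 11881 FPKM. The second gene, cyc-2.2 (ZC116.2, chromosome V from 12611311 to 12628720 on ce10, with 3 exon blocks), was the least abundant, at 3.72 and 21.4 FPKM. Its log2 fold change of 2.53 (SE 1.58, q = 0.242 in the authors' deposited table) was the highest of the 30.

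Complex IV reduces oxygen. The gene cco-1, for subunit Vb, was at 2741 FPKM in wild type and 2196 after RNAi, and cco-2, for subunit Va, at 2237 and 1453. Their log2 fold changes were -0.32 (SE 0.57) and -0.62 (SE 0.55), and neither passed. The row W09C5.8, the current cox-4, was at 476 and 506 FPKM (q = 0.951).

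ATP synthase had lower values after RNAi in 8 of 8 genes, with a median log2 fold change of -0.90, and 1 passed. Of the 8, 4 were above the median gene and 4 below. The gene asg-1 (K07A12.3, chromosome I from 8692938 to 8695153 on ce10, with 2 exon blocks) was at 3470.4 FPKM in wild type and 1481 after RNAi. It was 2.34-fold lower, a log2 fold change of -1.23 (SE 0.45, q = 0.0437 in the authors' deposited table). Its distance from the median gene was -0.33 (adjusted p = 0.866), and it also did not pass when p-values were adjusted over all rows of the table (adjusted p = 0.231). Its locus also holds the row K07A12.5, at 2.05 and 2.32 FPKM and untested. Its paralog asg-2 was at 637 and 549 FPKM, a log2 fold change of -0.21 (SE 0.47), the highest of the 8.

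The lowest fold change of the 8 was that of atp-2, the catalytic beta subunit, at 2019 and 819.7 FPKM (2.46-fold lower, with an SE of 0.59 on the log2 scale, q = 0.106). The peripheral stalk genes atp-3, atp-4 and atp-5 were at 1587 and 795, at 2849 and 2103, and at 1259.8 and 607 FPKM. The paralogs for subunit b were close in level, with asb-1 at 428 and 246 FPKM and asb-2 at 388 and 247. The alpha subunit row H28O16.1, the current atp-1, was at 696 and 682 FPKM (q = 0.973).

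**Figure D2:**
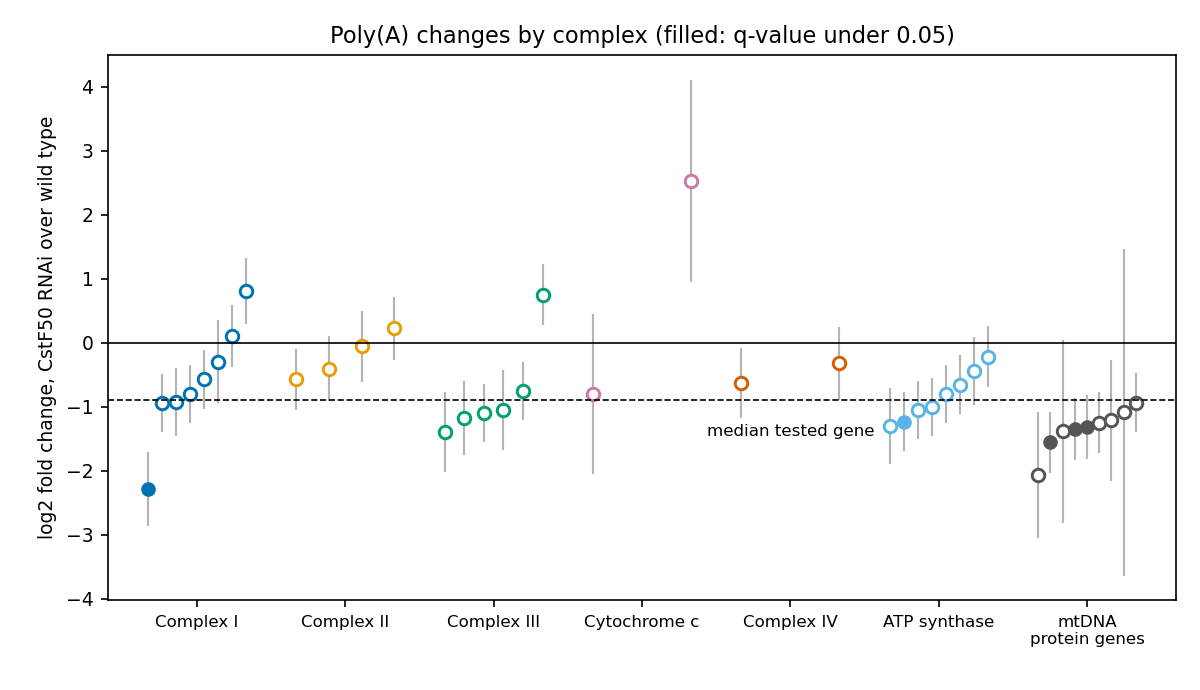
Log2 fold change of CstF50 RNAi over wild type in poly(A) RNA for each respiratory gene, grouped by complex, with the tested protein-coding rows of mitochondrial DNA at the right. Bars are 1 SE implied by the authors' p-value, filled points passed a q-value of 0.05, and the dashed line marks the median tested gene at -0.90. The filled nuclear genes are lpd-5 at -2.28 and asg-1 at -1.23, and 4 of the 4 complex II genes lie above the dashed line.

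In rRNA-depleted RNA 2 of the 30 genes passed in the authors' deposited table (adjusted p under 0.05), against 8.31% of all 25640 genes (5.54% higher and 2.77% lower in B). Of the 8446 genes also tested in poly(A) RNA, 13.1% passed, 7.98% higher and 5.11% lower in B. The gene cyc-2.2 was higher in B and nuo-6 lower. The median log2 fold change of B over A was 0.02 in the 29 genes with both means above 0, and it was 0.02 in all genes too. The genes of the 2 calls differ from those of poly(A) RNA, and a difference between the fractions was not tested, since A and B are not tied to treatments and the tables were normalized separately.

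The gene nuo-6 (W01A8.4, chromosome I from 7065262 to 7069187 on ce10), an accessory subunit gene of complex I, held 1838 and 1939 normalized counts in the A libraries, against 1059 and 1177 for the B libraries. Both libraries of B lay below both of A. The means were 1889 ± 71.3 in A and 1118 ± 83.8 in B (SD, n = 2). The log2 fold change of B over A was -0.76 (adjusted p = 0.0219 in the authors' deposited table). Its exons overlap those of cutl-6 on the opposite strand. Whether the counting used strand is not given in the sources used here, so reads of such a pair cannot be told apart. The same holds for 7 of the 30 genes, nuo-5, nuo-6, gas-1, cyc-1, ucr-2.2, ucr-2.3 and asg-1. In all, exons of 10 of the 30 genes overlap those of another protein-coding gene. For nuo-1, nuo-3 and atp-4 that gene lies on the same strand (C09H10.4, Y57G11C.1147 and T05H4.11), where strand would not separate the reads.

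The gene cyc-2.2 had no count in either library of A, whereas the B libraries held 327 and 139 counts. These equal 90.03 and 90.22 normalized counts, so the libraries of B were close together and apart from A. With 3 counts summed over the A libraries as the floor, B was at least 29.7-fold higher, a bound that covers counting error only (adjusted p = 3.96e-08 in the authors' deposited table).

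Markers of several cell types, sperm and hypodermis among them, were higher in B, as cyc-2.2 was. The marker counts that follow cover only genes that passed in the authors' deposited tables. Of 10 sperm markers (5 msp genes for the major sperm protein, ssp-9, gsp-3, gsp-4, spe-9 and spe-11), of which the msp genes have near-identical copies, 9 were higher in B and none lower. Summed over the 10, the A libraries held 116 and 165 normalized counts and the B libraries 4952 and 7185, with msp-3, gsp-3 and gsp-4 at 0 in both libraries of A. In poly(A) RNA 4 of the 7 tested sperm markers rose, and the sum of all 10 was 25.8 FPKM in wild type and 377 after RNAi, with spe-9 listed at 0 in wild type. Of 6 hypodermis markers 4 passed as higher in B and none as lower. The 6 summed to 5353 and 5211 normalized counts in the A libraries and 11252 and 9444 in those of B. The gene col-19 made up most of these sums, with means of 4730 in A and 8941 in B. The markers dpy-7 and nhr-23 did not pass. Both B libraries of dpy-7 (94.4 and 86.3) lay below both of A (157 and 173). Those of nhr-23 (482 and 524) lay above A (402 and 345). The collagen gene rol-6 was at 0 in both libraries of A and at 138 and 110 in B, and the collagen gene dpy-13 had a mean of 1.35 in A and 457 in B. In poly(A) RNA 2 of 5 tested hypodermis markers rose, dpy-13 from 0.356 to 307 FPKM and rol-6 from 0.163 to 16.1, and nhr-23 fell from 21.4 to 6.43. Body wall muscle markers, 6 of 6 higher in B with sums of 13477 and 34645 normalized counts in A and B, had no call among 3 tested in poly(A) RNA. Of 9 oocyte and germline markers 2 fell in poly(A) RNA and 1 was higher in B. Of 7 intestine markers 1 was higher and 2 lower in B, and 2 of 5 tested fell in poly(A) RNA. Of 6 neuron markers 1 was lower in B, and 1 of 5 tested fell in poly(A) RNA. The part of any of these cell types in the cyc-2.2 difference was not tested.

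The rest of the complex I genes did not pass in this table, although 8 of 8 had libraries that did not overlap between A and B. Such separation is common with 2 libraries against 2, and 72.8% of the 8328 genes also tested in poly(A) RNA showed it (37.8% with B above A and 35.0% with B below A). The smallest p that an exact 2-sided permutation test of 2 against 2 can give is 0.333. The gene lpd-5, which fell in poly(A) RNA, held 1693 and 1566 normalized counts in A against 1109.5 and 1099 in B, a log2 fold change of -0.56 (adjusted p = 0.0906 in the authors' deposited table). For gas-1 these were 685 and 654 against 1067 and 897, a log2 fold change of 0.55 (adjusted p = 0.225). For nuo-5 the libraries of A held 1952 and 1867 normalized counts and those of B 2546 and 2633 (adjusted p = 0.336). In nuo-1 B also lay above A, and in nuo-2, nuo-3 and nuo-4 it lay below.

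Complex II genes had all 4 pairs of B libraries above A by a small margin. Of all genes also tested in poly(A) RNA, 37.8% had B above A in this way, and a shared shift of the 4 genes was not tested. The log2 fold changes ran from 0.12 to 0.38, and none passed (lowest adjusted p 0.695). The largest was that of sdha-1, whose A libraries held 1176 and 1012 normalized counts and whose B libraries held 1495 and 1361. The smallest was that of sdhd-1, at 356 and 357 against 358 and 417.

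Among complex III genes the adjusted p was 1 in 6 of 6. The libraries of A and B overlapped in cyc-1, ucr-1, ucr-2.1 and ucr-2.3, and B lay below A in isp-1 and ucr-2.2. The gene ucr-2.1, higher relative to the median gene in poly(A) RNA, held 824 and 715 normalized counts in A against 746 and 758 in B. For its paralog ucr-2.2 these were 686 and 731 against 584 and 609, and for ucr-2.3 they were 1030.1 and 843 against 1168 and 962. The cytochrome c gene cyc-2.1 held 2744 and 2585 against 2888 and 2509, which overlap.

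In ATP synthase, asb-1 came nearest to a call. Its A libraries held 3113 and 3212 normalized counts and its B libraries 2187 and 1931, a log2 fold change of -0.62 (adjusted p = 0.0759 in the authors' deposited table). In worms asb-1 is known as the germline isoform of subunit b. The paralog asb-2 held 1764 and 1642 in A against 1729 and 1823 in B, which overlap. For asg-1 the values were 1325 and 1433 against 998 and 1111 (adjusted p = 0.581), with B below A. For asg-2 they were 433 and 409 against 429 and 304, which overlap. Library counts of B could not be recovered for cco-1 and atp-2, because more than 1 pair of whole counts gave their mean. The mean of cco-1 was 14267 for A and 10718 for B, that of atp-2 was 17574 and 17384, and neither gene passed.

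**Figure D3:**
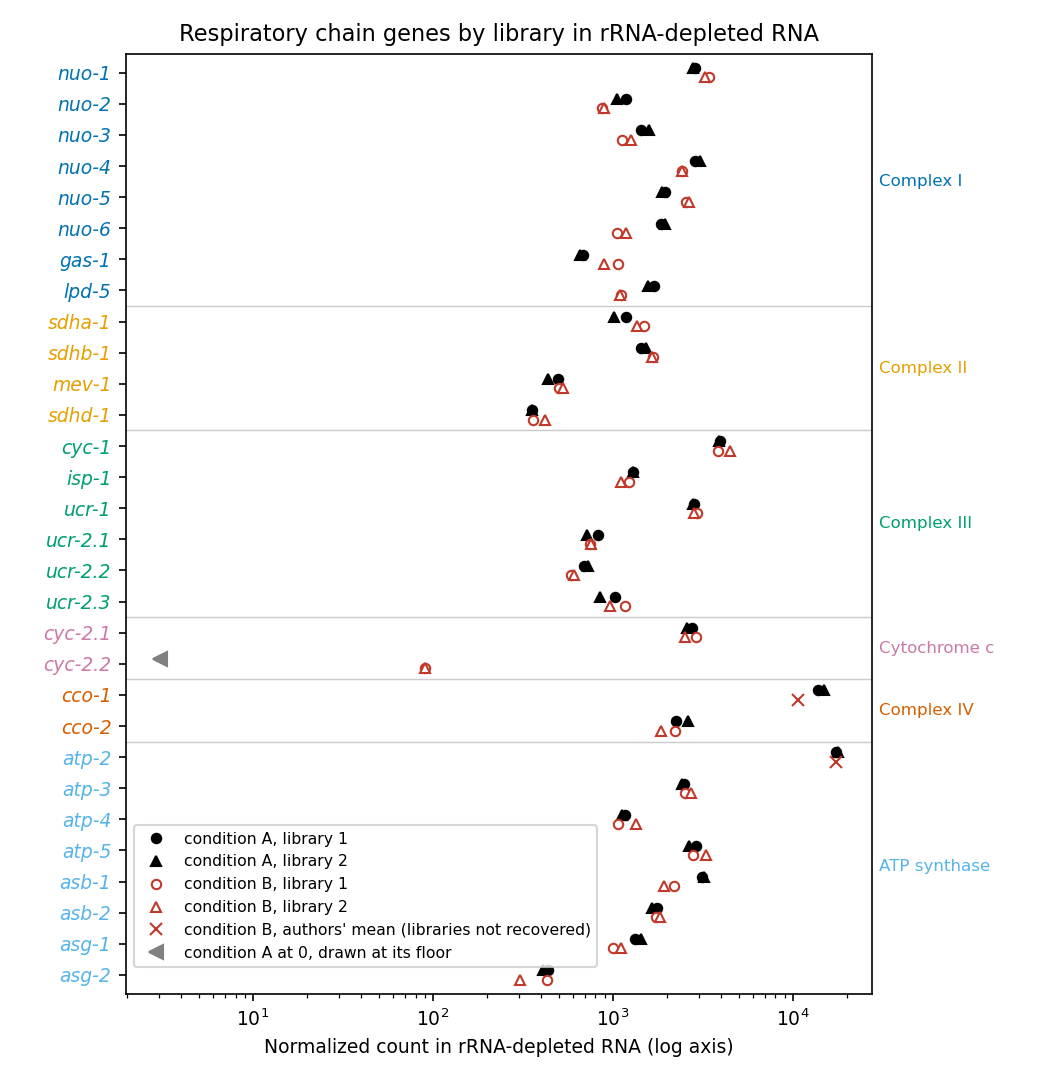
Normalized counts of the 30 respiratory genes in each recovered library of rRNA-depleted RNA (log axis), with the libraries of condition A in black and those of B as open red symbols. The crosses mark the authors' mean of B where library counts were not recovered, and the grey triangle marks cyc-2.2 in A, which had 0 counts and is drawn at its floor of 3 counts (3.04 normalized counts). The pairs lie apart in nuo-6 (1838 and 1939 against 1059 and 1177) and overlap in 9 genes such as cyc-2.1.

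Over the 28 genes with counts recovered in all 4 libraries, B lay below A in 10, above A in 9 and overlapped it in 9. Of the 8328 genes also tested in poly(A) RNA, B lay below A in 35.0% and above A in 37.8%. The authors' test called 2 genes, whereas limma-voom on the recovered counts called 11 of these 28, beside 28.1% of all 19954 genes it tested and 37.3% of those also tested in poly(A) RNA. With library totals in place of the size factors it called 10 (background 28.7%, and 37.7% of genes also tested in poly(A) RNA). With no filter on low counts it called 11 (23.2% and 35.9%). The lower calls among the 11 were nuo-2, nuo-3, nuo-4, nuo-6, lpd-5, asb-1 and asg-1, and the higher calls nuo-5, gas-1, sdha-1 and cyc-2.2. The counts that follow, each with 1 library left out, stand beside the share called among all genes tested in that fit. Among genes also tested in poly(A) RNA the share called was higher in each of these fits. Whether the counts exceed that share was not tested. The main count of 11 became 3 without library 1 of A (background 10.3%) and 4 without library 2 of A (20.6%). It was 14 without library 1 of B (35.3%) and 12 without library 2 of B (34.6%).

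Levels per kilobase of exon can be ordered within this table. In both A and B cco-1 was highest (17273 and 12975 normalized counts per kilobase), then atp-2 and cyc-2.1, and cyc-2.2 was lowest. Across 29 genes the FPKM in wild type and the count per kilobase in A had a Pearson's r of log2 values of 0.70 and a Spearman's rho of 0.69, a description over genes that share libraries and base composition. With the count per kilobase in B, over 30 genes, r was 0.73 and rho 0.71. These values do not tie A or B to wild type. The log2 fold changes of the 2 tables had r 0.37 and rho 0.25 over 29 respiratory genes, beside r 0.56 and rho 0.31 over the 8147 genes with a fold in both.

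**Figure D4:**
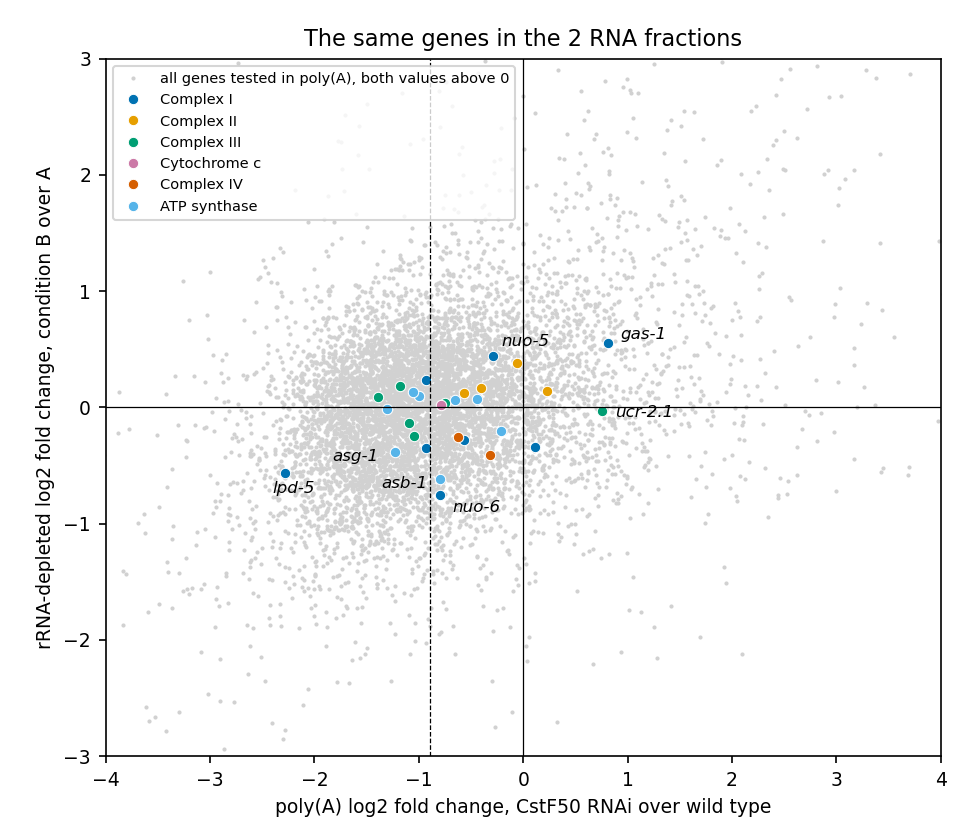
Log2 fold change in poly(A) RNA (CstF50 RNAi over wild type, horizontal) against that in rRNA-depleted RNA (condition B over A, vertical) for 29 respiratory genes in colour by complex, and for 8147 genes in grey, of which 208 lie outside the axes. The dashed line is the median poly(A) fold change of -0.90. Respiratory genes lie between -0.76 and 0.55 on the vertical axis, with lpd-5 lowest on the horizontal axis at -2.28, and cyc-2.2 is not drawn because its mean in A was 0.

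The respiratory genes lie on all 6 chromosomes, with 7 on I, 3 on II, 7 on III, 3 on IV, 4 on V and 6 on X. The 6 genes on X (gas-1, sdha-1, ucr-2.1, ucr-2.2, asb-2 and asg-2) had a median poly(A) log2 fold change of -0.13, from -1.05 to 0.81, and the 24 on autosomes one of -0.79. No such gap stood between all tested genes of the X chromosome (median -0.96) and of the autosomes (-0.89), and the difference within the respiratory genes was not tested.

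Many C. elegans genes lie in operons, in which a downstream gene follows an upstream one closely on the same strand, and the series title names genes and operons. By the WBcel235 annotation 17 of the 30 genes (56.7%) had a same-strand protein-coding neighbour within 500 bases, beside 39.8% of 8048 tested genes matched in that annotation. The median poly(A) log2 fold change was -0.80 in these 17 and -0.62 in the other 13. An annotated neighbour is not evidence of an operon.

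The neighbours downstream were examined after their values had been seen. Of 11 such neighbours 9 had been tested in poly(A) RNA, and 4 of the 9 fell (44.4%), beside 16.2% of the downstream neighbours in all 1389 such pairs. The ubiquinone synthesis gene coq-3, 94 bases downstream of nuo-3, was at 388 FPKM in wild type and 113 after RNAi (q = 0.0489 in the authors' deposited table), while nuo-3 was at 864 and 936. The arginine methyltransferase gene prmt-5, 18 bases downstream of atp-2, was at 26.3 and 8.30 FPKM (q = 0.0201). F33A8.4, 113 bases downstream of sdhd-1, was at 41.9 and 11.02 FPKM, and F27C1.6, 75 bases downstream of atp-3, was at 81.5 and 23.2. Taken from the median gene, none of the 4 passed (adjusted p from 0.353 to 0.640). In 6 of the 9 pairs the neighbour had the lower log2 fold change, beside 49.0% of all pairs. Of these 4 neighbours none passed in rRNA-depleted RNA, and the 4 upstream respiratory genes passed in neither table.

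The remaining respiratory subunits are encoded by mitochondrial DNA. Of the names fixed for them only ctb-1, the cytochrome b gene of complex III, matched a row, so all protein-coding rows of mitochondrial DNA in the poly(A) table were taken, a choice made after seeing the data. None of them was found by gene identifier in the rRNA-depleted table. Of 9 tested rows, 3 fell and none rose, and 9 of 9 had lower values after RNAi, with a median log2 fold change of -1.32. Measured from the median gene, 0 of the 9 passed (median of the 9 at -0.42). The gene ctb-1 was at 158 FPKM in wild type and 53.6 after RNAi, a log2 fold change of -1.56 (SE 0.48, q = 0.0146 in the authors' deposited table). MTCE.31 was at 327 and 129 FPKM (q = 0.0366), and MTCE.3, annotated as the complex I gene ND6, at 103 and 41.5 (q = 0.0497). The 2 ribosomal RNA rows of the same genome had values in unlike directions, and neither passed. MTCE.33 was at 511 and 219 FPKM (q = 0.547), with a locus of 3 rows, and MTCE.7 at 32.3 and 55.7 FPKM (q = 0.236). Relative to the median gene MTCE.7 was higher by 1.68 and passed (adjusted p = 0.0121), and MTCE.33 was at -0.32 (adjusted p = 0.984).

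Other genes of the pathway were taken from lists of names. Their poly(A) counts stand beside 13.6% lower and 3.12% higher among all tested genes. Their rRNA-depleted counts stand beside 7.98% higher and 5.11% lower in B among genes also tested in poly(A) RNA. Of 9 further genes found from a list of other respiratory subunit names, 1 rose in poly(A) RNA and none fell. This was cox-6C, a complex IV subunit gene, at 413 FPKM in wild type and 2037 after RNAi (4.93-fold, q = 9.57e-05 in the authors' deposited table). It was 3.20 above the median gene on the log2 scale (adjusted p = 1.15e-09). The complex IV subunit gene cox-7C, at 1677 and 2989 FPKM, did not pass by the q-value (0.186) but passed relative to the median gene, at 1.73 above it (adjusted p = 0.00510). In rRNA-depleted RNA none of the 9 passed by the authors' test, and cox-6C was at 1149 normalized counts in A against 1038 in B. Among factors that assemble the complexes or scaffold the inner membrane, 1 of 12 tested fell in poly(A) RNA, the prohibitin gene phb-1 (725 and 307 FPKM, q = 0.0418). In rRNA-depleted RNA 1 of 13 was lower in B, the complex I assembly gene nuaf-3 (559 and 322 normalized counts, adjusted p = 0.0376). Of 8 ubiquinone synthesis genes, 2 fell in poly(A) RNA. These were coq-3, given above, and coq-8, which went from 23.8 to 7.27 FPKM (q = 0.0219), while coq-5 was lower in B (994 and 532 normalized counts, adjusted p = 0.00892).

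In the tricarboxylic acid cycle 1 of 20 genes fell in poly(A) RNA and none rose. It was sucg-1, for a succinyl-CoA ligase subunit, at 189 and 63.2 FPKM (q = 0.0156 in the authors' deposited table). Another subunit gene of that ligase, suca-1, was the single call of 20 in rRNA-depleted RNA, at 1088 normalized counts in A against 2105 in B (adjusted p = 0.000891). In glycolysis 2 of 17 tested genes fell in poly(A) RNA, the glyceraldehyde-3-phosphate dehydrogenase genes gpd-1 (1115 and 394 FPKM) and gpd-4 (670.4 and 219). These genes have near-identical copies, so reads may have been split among them. The aldolase gene aldo-1, at 281 and 541 FPKM, passed only relative to the median gene (1.84 above it, adjusted p = 0.00288, with a q-value of 0.140). In rRNA-depleted RNA 4 of 19 were higher in B, which were gpd-2 (3245 and 7197 normalized counts), gpd-3 (4152 and 8653), aldo-1 (489 and 817) and pfk-1.2 (0 in A and 54.3 in B).

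Adenine nucleotide translocators exchange ADP for ATP across the inner membrane. The most abundant, ant-1.1, was at 10917 FPKM in wild type and 6414 after RNAi and did not pass. The gene ant-1.4 rose from 0.435 to 7.80 FPKM (q = 0.0248 in the authors' deposited table), and ant-1.3 was higher in B, at 0 normalized counts in A against 47.6 in B (adjusted p = 0.000414). Relative to the median gene both passed in poly(A) RNA, ant-1.4 at 5.06 above it (adjusted p = 0.00670) and ant-1.3 at 3.52 above it (adjusted p = 0.0324). Of tested sperm markers 4 of 7, and of hypodermis markers 2 of 5 (dpy-13 and rol-6), rose in poly(A) RNA and were higher in B. The hypodermis marker nhr-23 fell in poly(A) RNA. The part of these cell types in ant-1.3, ant-1.4 and pfk-1.2 was not tested. Of the mitochondrial stress response genes, 3 of 9 tested fell in poly(A) RNA, the chaperone genes hsp-60 (337 and 99.88 FPKM, q = 0.0413) and dnj-10 (51.0 and 11.4, q = 0.00996) and the protease gene lonp-1 (36.3 and 12.4, q = 0.0245). In rRNA-depleted RNA 2 of 10 were lower in B, ubl-5 (530.2 and 186 normalized counts) and the protease gene clpp-1 (1241 and 685). Of the genes that fell in these lists of named subunits, assembly, ubiquinone, cycle, glycolysis and stress genes, none passed relative to the median gene, where their adjusted p ran from 0.308 for dnj-10 to 0.859 for phb-1.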

How the data were processed

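Groups were taken from sample titles. Reads were processed with Bowtie and DESeq (no versions) on ce10, per the submitters' processing notes. Which counter, annotation or filters the authors used is not given in the sources used here. For poly(A) RNA the authors deposited 1 FPKM value per gene and group and their p-value and q-value, a Cuffdiff layout per the file headers. For rRNA-depleted RNA they deposited mean normalized counts of conditions A and B and their p-values, raw and adjusted, a DESeq layout per the file headers.

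Calls used the authors' q-value or adjusted p under 0.05. Fold changes were recomputed from the deposited values. Each SE in poly(A) RNA was derived by dividing the log2 fold change by the normal deviate that matches the authors' p-value, and the test relative to the median gene used it with Benjamini-Hochberg adjustment over 8244 genes with both values above 0. In the rRNA-depleted table a mean combines whole counts of both libraries over their size factors, here 0.739 and 0.249 in A and 3.63 and 1.54 in B. Counts per library were taken where exactly 1 solution came within 0.7 units of the last printed digit, for 25479 genes in A and 25399 in B, up to means of 30000. They show values per library and feed limma-voom (limma 3.58.1, R 4.3.3) as an alternative, with genes summing to 10 counts or more. Recovery, limma-voom and the median-gene test were tested on simulated data. Counting floors cover counting error only.

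The members and lists were chosen with earlier results of these data known. Described in full are genes called in either table, the extremes of each complex and paralogs, and from other lists at most 4 called genes. Coordinates are the authors' loci, written 1-based. Exon lengths, strand and neighbours come from the WBcel235 annotation. Alternatives were other thresholds and families of adjustment, centring on the median gene, minimum levels, pseudocounts, loci shared with other rows, limma-voom and leaving out each library. No sequences are shown. Python 3.11.15, pandas 2.3.3, scipy 1.17.1 and matplotlib 3.10.9 were used.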

Additional observations from a re-analysis of the deposited data

How the results depend on the processing

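Of the 2 poly(A) calls, 1 was left (lpd-5) at a q-value under 0.01, after adjustment over all rows, and over the 17 genes alone in their locus. Relative to the median gene there were 2 calls of other genes (gas-1 and ucr-2.1), and the median of the 30 was 0.20. A minimum of 5 FPKM left the count at 2. Of the 2 rRNA-depleted calls, 1 was left at an adjusted p under 0.01 (cyc-2.2), and 1 relative to the median gene (nuo-6, since cyc-2.2 has no fold). Limma-voom called 11, with library totals 10 (background 28.7%) and with no filter 11 (23.2%). Among genes also tested in poly(A) RNA these backgrounds were 37.7% and 35.9%. Leaving out 1 library gave 3 to 14 calls. Whether these counts exceed the share called among genes also tested in poly(A) RNA was not tested. With 1 library left in a condition, it is assumed to vary like the other. Each limma-voom fit called nuo-6, cyc-2.2 and asb-1, and asb-1 had adjusted p from 0.000139 to 0.0415. The median of the rRNA-depleted fold changes stayed between 0.00411 and 0.07 when 1 library was left out. Adding atp-1 and cox-4, chosen after seeing the data, left both counts at 2 and gave medians of -0.64 and 0.04.

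Relative to the median gene the poly(A) fold change turned positive, without passing, in 14 genes: nuo-4 (0.33), nuo-5 (0.60), nuo-6 (0.10), sdha-1 (0.84), sdhb-1 (0.50), sdhd-1 (0.33), ucr-1 (0.15), cyc-2.1 (0.10), cco-1 (0.58), cco-2 (0.27), atp-4 (0.46), asb-1 (0.10), asb-2 (0.25) and asg-2 (0.68). Small rRNA-depleted fold changes took both signs when limma-voom left out 1 library in turn: cyc-1 (-0.035 to 0.19), ucr-2.1 (-0.13 to 0.069), ucr-2.3 (-0.020 to 0.34), cyc-2.1 (-0.10 to 0.098), atp-4 (-0.13 to 0.22, and -0.011 with no filter), atp-5 (-0.019 to 0.22), asb-2 (-0.000393 to 0.11) and asg-2 (-0.49 to 0.0066). The cause was not tested. No paired analysis was possible because the poly(A) table has no column per library and the recovered libraries carry no replicate number. In poly(A) RNA the implied SE had a median of 0.50, from 0.45 to 1.58.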
